A study of Mus musculus with 12 samples.

Results

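Interferon-stimulated genes are transcripts that cells switch on when interferons, the secreted alarm signals of antiviral immunity, bind their receptors. The 35 members followed here were given as a list of mouse symbols and were looked up through their Ensembl identifiers among the 33200 gene rows of the inguinal white adipose tissue (iWAT) count table. All 35 were found, each under a single identifier, and all 35 passed the filter on low counts (fewest in any library, 42 counts). For comparison they were split into 11 type I genes (the Ifit, Oas and Mx families), 5 gamma-induced GTPases (Gbp2, Gbp3, Gbp7, Irgm1 and Igtp) and 19 members outside both classes.

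The iWAT, fat that lies under the skin of the groin, came from 3 wild-type C57BL/6 mice and 3 mice with a whole-body CRISPR/Cas knockout (KO) of Nrep, and its poly(A) RNA was sequenced. Both genotypes were kept pathogen-free on a standard maintenance diet and sampled at 16 weeks. The knockout is global, so a difference in fat cannot be assigned to loss of Nrep in any one cell type, and the 6 liver samples are not analysed here. Libraries held 17970451 to 20369345 estimated counts, and Nrep had 1300 to 1640 counts in wild type and 2 to 5 in KO. The adipocyte markers Adipoq, Plin1 and Cidec were abundant in all 6 libraries. The muscle markers Ckm and Myh4 had at most 3 counts in each wild-type library and at least 1993 in each KO library. Acta1, a further muscle marker, had 147 to 245 counts in wild type and 2726 to 15776 in KO. The part of muscle tissue in the members' values was not tested. In bulk tissue, fewer cells of a type and less RNA per cell cannot be told apart.

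Type I interferons (the alpha and beta interferons) signal through the receptor chains Ifnar1 and Ifnar2 to a complex that includes Stat2 and Irf9 and binds the interferon-stimulated response element of target promoters. Interferon gamma signals through Ifngr1 and Ifngr2 to the gamma-activated site of its target promoters, and induces Irf1. The 2 programs overlap: the Ifit, Oas and Mx genes respond most to type I interferons, and the guanylate-binding proteins (Gbp) and immunity-related GTPases (Irgm1, Igtp, Iigp1) respond strongly to gamma. In fat, such genes can be expressed by adipocytes, stromal cells and resident or recruited leukocytes.

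Promoter sequence is shown because the response element core was found in members with both large and small fold changes. Ifit1 and Oasl2 stand for the type I genes, Gbp2, Irgm1 and Igtp for the GTPases, and Isg15 and Rsad2 for the members outside both classes. Oasl2 is included as a member with neither pattern. RefSeq promoters (GRCm38.p6, 250 bases before to 50 after the start) were matched for 25 of the 35 members. The response element core was searched as 2 runs of GAAA separated by any 2 bases, and the gamma-activated site as TTCNNNGAA, on both strands. The 2 patterns can share a GAA. The core was found for 5 of 8 matched type I genes, 5 of 5 GTPases and 5 of 12 other members, against 3.99% of all 27025 genes with a promoter. The gamma-activated letters were found for 2 of 8, 2 of 5 and 3 of 12, against 9.55% of all genes. The 60-base stretches that follow lie before the start site and run 5′ to 3′ on the gene's strand, with matches to either pattern in capitals. They are chr4:156200862-156200921 (minus strand) for Isg15, chr19:34640760-34640819 (plus) for Ifit1, chr5:114896849-114896908 (plus) for Oasl2, chr12:26456538-26456597 (minus) for Rsad2, chr3:142620579-142620638 (plus) for Gbp2, chr11:48871421-48871480 (minus) for Irgm1 and chr11:58199496-58199555 (plus) for Igtp.
Isg15: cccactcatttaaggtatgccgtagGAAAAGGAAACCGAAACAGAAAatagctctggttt
Ifit1: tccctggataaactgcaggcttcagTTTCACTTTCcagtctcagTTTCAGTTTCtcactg
Oasl2: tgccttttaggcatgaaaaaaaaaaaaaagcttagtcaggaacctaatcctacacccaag
Rsad2: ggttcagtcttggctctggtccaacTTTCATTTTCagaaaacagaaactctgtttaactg
Gbp2: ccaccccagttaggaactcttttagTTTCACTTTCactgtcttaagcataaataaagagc
Irgm1: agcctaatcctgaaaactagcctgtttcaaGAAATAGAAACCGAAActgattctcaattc
Igtp: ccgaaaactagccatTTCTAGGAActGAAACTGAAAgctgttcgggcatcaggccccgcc
The Isg15 stretch held 3 overlapping copies of the core, Ifit1 2 and Irgm1 2, while Rsad2 and Gbp2 each held 1. Igtp held 1 core and 1 gamma-activated match. Among the 8 matched type I genes, Ifit2, Oasl1 and Oasl2 had no core in the promoter window. A match is a description of the letters and not evidence of binding.

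The main pattern was a split among the wild-type libraries. Wild-type replicates 1 and 2 held the most RNA of nearly every member, and wild-type replicate 3 lay at or near the KO libraries. Both wild-type replicates 1 and 2 exceeded all KO libraries for 32 of the 35 members (22.8% of all tested genes). For 21 of these 32, wild-type replicate 3 did not exceed the highest KO library (9.70% of all tested genes). It was the lowest wild-type library for 33 members (38.4% of all tested genes). KO replicate 2 in turn had the highest KO level of the type I class. Results are therefore given with and without these libraries.

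**Figure D1:**
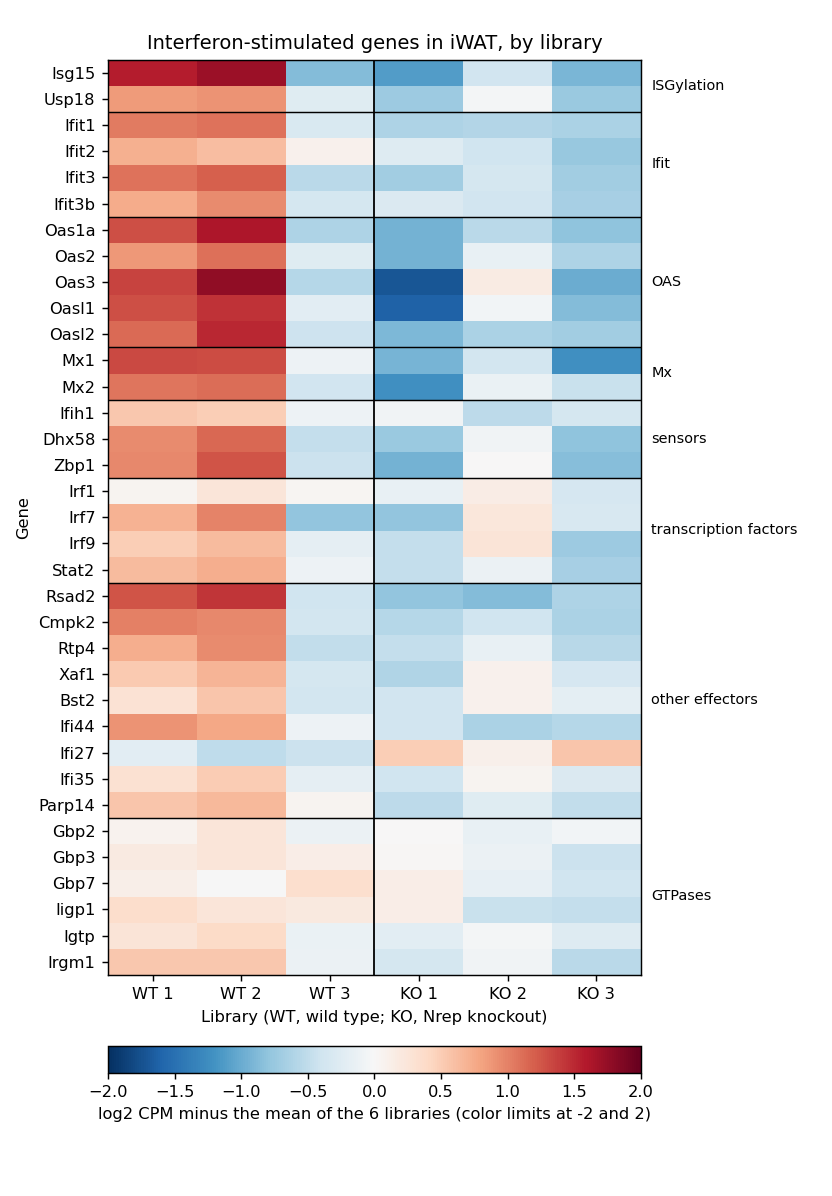
Rows are the 35 members grouped by role and columns are the 6 libraries; color gives log2 CPM minus the gene's mean over the 6 libraries. Wild-type replicates 1 and 2 are red for the Isg15, Ifit, Oas and Mx rows, wild-type replicate 3 resembles the KO columns, the GTPase rows are pale, and Ifi27 runs the other way.

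With edgeR's quasi-likelihood test at an adjusted p of 0.05, 0 of the 35 members were called, beside 1.03% of the 16656 tested genes (0.162% lower and 0.865% higher in KO). The smallest adjusted p was 0.0625, for Ifit2. At an unadjusted p under 0.05, 26 members were found (22.6% of all tested genes), 25 lower in KO (9.79% of all tested genes) and 1 higher (12.8%). The log2 fold change, KO against wild type, was negative for 34 of 35 members (55.8% of all tested genes), with a median of -0.95 beside -0.06 over all tested genes. The groups did not overlap for 11 members with higher wild-type levels (13.1% of all tested genes) and for 1 with higher KO levels (15.2%). DESeq2 called 18 members lower (3.60% of all tested genes) and 1 higher (7.34%), and limma-voom called 0 (0.0961% of all tested genes, 0.00600% lower and 0.0901% higher). DESeq2 called 10.9% of all tested genes in either direction. The members were chosen with earlier results of these data known, so these counts describe the list.

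Isg15 had the most negative fold change of the 35 members and its partner Usp18 a smaller one. Isg15, a ubiquitin-like protein that is attached to other proteins, had 62.0, 68.2 and 11.5 CPM (counts scaled to a common library size) in wild-type replicates 1, 2 and 3 and 9.64, 16.0 and 11.1 in KO replicates 1, 2 and 3. The third wild-type value thus lay inside the KO range. The log2 fold change was -1.95 (SE 0.586), with an edgeR adjusted p of 0.113. It moved to -2.41 without wild-type replicate 3. The longest Isg15 transcript was 95.2% identical to that of another gene, AC151275.1, over 482 bases, so its counts carry some uncertainty. Usp18, the protease that removes Isg15 and dampens type I receptor signalling, had 45.6, 47.4 and 21.4 CPM in wild type and 15.4, 24.7 and 15.2 in KO. Its log2 fold change was -1.05 (SE 0.328, edgeR adjusted p = 0.123).

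The Ifit genes encode proteins that bind viral RNA and block its translation. Ifit1 had 47.6, 49.2 and 18.7 CPM in wild type and 15.0, 15.3 and 14.9 in KO, so the groups did not overlap and the 3 KO libraries were nearly identical. The log2 fold change was -1.35 (SE 0.335, edgeR adjusted p = 0.0798). Ifit2, which also promotes apoptosis, had 62.0, 58.4 and 40.0 CPM in wild type against 31.7, 28.8 and 22.3 in KO. Its groups were separate too, with a log2 fold change of -0.95 (SE 0.201, edgeR adjusted p = 0.0625). Ifit3, a further member of the family, had 144, 155 and 46.3 CPM in wild type and 41.8, 53.0 and 42.0 in KO. Here wild-type replicate 3 fell within the KO range. Ifit3b had 27.9, 32.2 and 13.1 CPM in wild type and 10.6 to 13.6 in KO. The longest transcripts of Ifit3 and Ifit3b were 97.8% identical over 1700 bases, so the split of reads between them is uncertain.

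The Oas genes encode sensors of double-stranded RNA whose product activates RNase L; Oasl1 and Oasl2 are their relatives. Oas1a had 73.9, 92.6 and 19.7 CPM in wild type and 15.8, 20.8 and 17.4 in KO. Wild-type replicate 3 was again inside the KO range, and the log2 fold change was -1.79 (SE 0.492, edgeR adjusted p = 0.0954). Oas1a and its neighbour Oas1g were 97.6% identical over 1861 bases, which makes their counts uncertain. Oas3 had 41.4, 55.3 and 10.9 CPM in wild type and 4.93, 18.3 and 8.11 in KO. Its KO libraries spread widely, with a log2 standard deviation (SD) of 0.94 against 0.25 for the median tested gene. Oasl2 had 123, 160.5 and 42.0 CPM in wild type and 30.1, 36.4 and 34.7 in KO, without overlap (log2 fold change -1.69, SE 0.426, edgeR adjusted p = 0.0828). Oas2 and Oasl1 overlapped between groups, with log2 fold changes of -1.21 and -1.71.

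Mx1 and Mx2 encode dynamin-like GTPases that trap viral components; laboratory C57BL/6 mice carry a defective Mx1 allele, so its RNA marks the response rather than a working protein. Mx1 had 42.2, 41.7 and 15.7 CPM in wild type and 8.83, 13.1 and 7.22 in KO. The groups did not overlap, and the log2 fold change was -1.77 (SE 0.398, edgeR adjusted p = 0.0670). Mx2 had 11.8, 12.2 and 4.30 CPM in wild type and 2.41, 5.12 and 4.11 in KO, with wild-type replicate 3 inside the KO range. Mx1 and Mx2 were 94.8% identical over 920 bases, 27.2% of the longest Mx1 transcript, so the split of reads between them is partly uncertain.

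**Figure D2:**
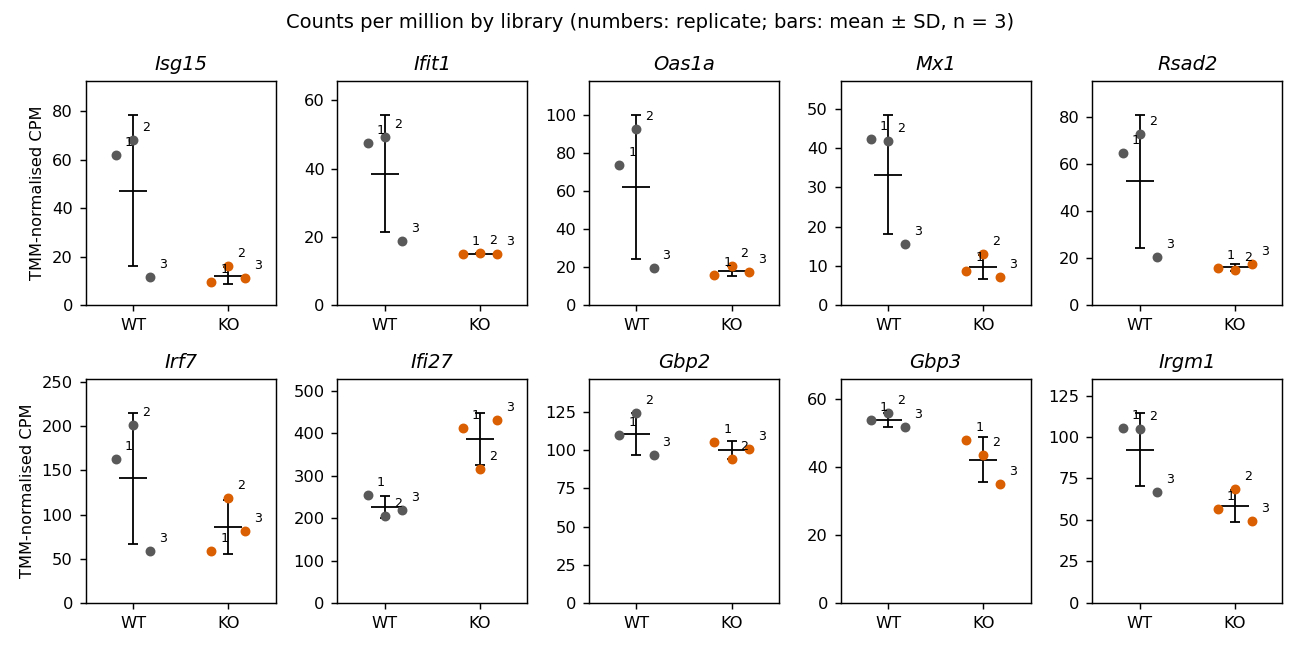
Each panel plots normalised CPM of 1 gene from a zero baseline, with points for libraries numbered by replicate and bars for mean ± SD (n = 3 per genotype). For Isg15, Ifit1, Oas1a, Mx1 and Rsad2, wild-type replicate 3 sits beside the KO points, while Gbp2 and Gbp3 vary little and Ifi27 is higher in all KO libraries.

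The sensors of viral nucleic acid showed the same split among wild-type libraries. Zbp1, which detects Z-form nucleic acid and triggers cell death, had 83.3, 102 and 31.9 CPM in wild type and 22.3, 42.9 and 23.6 in KO (log2 fold change -1.29, SE 0.434, edgeR adjusted p = 0.141). Dhx58, a regulator of RNA helicase sensing, had 41.3, 47.4 and 15.3 CPM in wild type and 12.8, 20.4 and 12.3 in KO (log2 fold change -1.19). Ifih1, the helicase also called MDA5, had 66.9, 64.8 and 42.7 CPM in wild type and 43.6, 32.1 and 36.1 in KO (log2 fold change -0.64). In all 3 sensors wild-type replicate 3 lay within the KO range.

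Among the transcription factors, the differences were smaller. Stat2, a subunit of the complex that drives the type I response, had 113, 120.3 and 68.1 CPM in wild type and 52.2, 67.3 and 46.2 in KO. The groups were just separate (log2 fold change -0.86, SE 0.239, edgeR adjusted p = 0.0952). Irf9, its DNA-binding partner, had 104, 114 and 64.9 CPM in wild type against 52.8, 88.4 and 44.4 in KO (log2 fold change -0.60). Irf7, which amplifies interferon production, had 163, 201 and 58.2 CPM in wild type and 58.5, 118 and 81.0 in KO. Wild-type replicate 3 was therefore the lowest of all 6 libraries for Irf7 (log2 fold change -0.71, SE 0.443, edgeR adjusted p = 0.363). Irf1, the factor most tied to gamma signalling, ranged from 108 to 124 CPM in wild type and from 83.4 to 117 in KO. Its log2 fold change was -0.21 (SE 0.154, edgeR adjusted p = 0.432).

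Among the 9 other effectors, 4 members were higher in wild type without overlap, beside 13.1% of all tested genes. Ifi27 alone was higher in KO without overlap, beside 15.2% of all tested genes. Rsad2 (viperin), an enzyme that makes a chain-terminating nucleotide, had 64.5, 72.5 and 20.4 CPM in wild type and 15.6, 14.9 and 17.6 in KO. The groups did not overlap (log2 fold change -1.71, SE 0.419, edgeR adjusted p = 0.0778). Cmpk2, a nucleotide kinase encoded beside Rsad2, had 49.8, 48.1 and 19.1 CPM in wild type and 16.6, 18.8 and 15.8 in KO (log2 fold change -1.19). Parp14, an ADP-ribosyltransferase, had 214, 228 and 149.7 CPM in wild type and 100.5, 123 and 103 in KO. There wild-type replicate 3 stood clear of the KO range (log2 fold change -0.86, SE 0.186, edgeR adjusted p = 0.0630). Ifi44, of unsettled function, had 21.5, 19.7 and 10.7 CPM in wild type and 8.83, 7.39 and 7.72 in KO, also without overlap (log2 fold change -1.12). Rtp4, Xaf1, Ifi35 and Bst2 overlapped between groups, with log2 fold changes of -0.89, -0.61, -0.44 and -0.36.

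Ifi27, a small interferon-induced membrane protein, had 255, 206 and 218 CPM in wild type and 412, 317 and 431 in KO. All KO libraries exceeded all wild-type libraries, and wild-type replicates 1 and 2 were not set apart from wild-type replicate 3. The log2 fold change was 0.77 (SE 0.172, edgeR adjusted p = 0.0644). Per kilobase of annotated exon, Ifi27 was also the most abundant member in wild type at 154 CPM per kilobase, followed by Bst2 at 127, Ifit3 at 66.0 and Isg15 at 62.5, with Mx2 at 2.61 the least abundant. The adipocyte marker list was higher in the KO libraries as well, at levels of 0.47, -0.06 and 0.84 against -0.43, -0.55 and -0.26 in wild type; its part in the Ifi27 values was not tested.

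**Figure D3:**
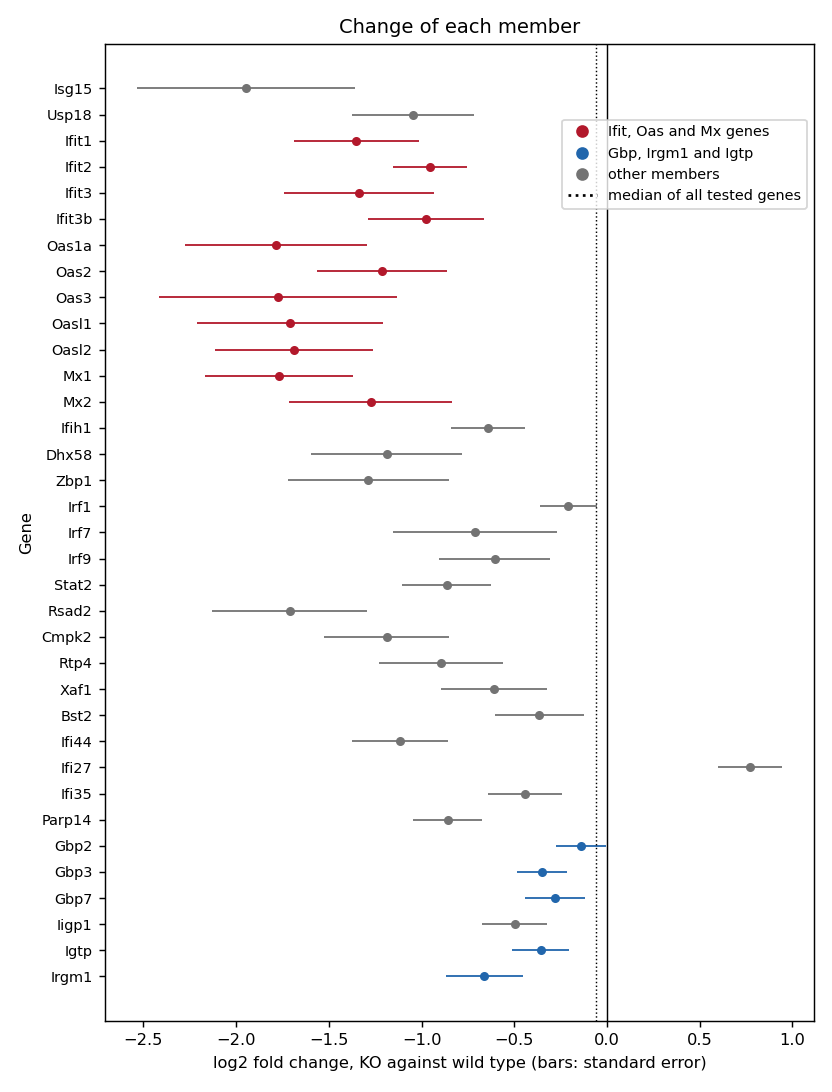
Points give the log2 fold change of each member, KO against wild type, with bars for the standard error; the dotted line is the median of all tested genes at -0.06. Red points (Ifit, Oas and Mx) lie between -1.79 and -0.95, blue points (Gbp, Irgm1 and Igtp) between -0.66 and -0.14, and Ifi27 alone is positive at 0.77.

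The gamma-induced GTPases, which attack vacuoles that hold microbes, differed far less. Gbp2 had 109.9, 124 and 96.8 CPM in wild type and 106, 94.1 and 101 in KO, with overlap (log2 fold change -0.14, SE 0.133, edgeR adjusted p = 0.537). Gbp3 had 53.6, 55.8 and 51.6 CPM in wild type and 47.9, 43.4 and 35.01 in KO. Its groups were separate, and its 3 wild-type libraries lay close together (log2 fold change -0.35, SE 0.137, edgeR adjusted p = 0.183). Gbp7 had 53.9, 49.4 and 62.9 CPM in wild type and 54.7, 44.5 and 37.7 in KO, so that wild-type replicate 3 was the highest library rather than a low one. Igtp had 82.7, 90.3 and 63.2 CPM in wild type and 59.4, 67.1 and 57.8 in KO (log2 fold change -0.36). Irgm1, which regulates the other immunity-related GTPases, had 105, 105 and 66.9 CPM in wild type and 56.8, 68.9 and 49.6 in KO (log2 fold change -0.66, SE 0.207, edgeR adjusted p = 0.120). In 3 of the 5 GTPases, Gbp2, Igtp and Irgm1, wild-type replicates 1 and 2 exceeded all KO libraries while wild-type replicate 3 did not. Iigp1, a related GTPase kept outside this class by the rule, had 60.4 to 67.1 CPM in wild type and 38.0 to 57.5 in KO (log2 fold change -0.50).

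Set side by side, the median log2 fold change of the type I genes was -1.35 and that of the GTPases -0.35, beside -0.06 over all tested genes. All 11 type I genes and all 5 GTPases were negative, and 0 of either class passed in edgeR; at an unadjusted p under 0.05 there were 11 and 2, all lower in KO, beside 9.79% of all tested genes. DESeq2 called 10 of 11 type I genes and 0 of 5 GTPases lower, beside 3.60% of all tested genes, and limma-voom called 0 of each. The groups did not overlap for 4 of 11 and 1 of 5, beside 13.1% of all tested genes with higher wild-type levels. The difference between the classes was not tested.

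A level was then taken for each class, as the mean log2 CPM of its genes minus the mean over the 6 libraries. For the type I genes it was 1.08, 1.24 and -0.33 in wild-type libraries 1, 2 and 3 and -0.91, -0.31 and -0.76 in KO replicates 1, 2 and 3. Wild-type replicate 3 thus lay just below KO replicate 2 on this scale. The GTPase level was 0.23, 0.28 and 0.02 in wild type and -0.08, -0.11 and -0.34 in KO, which did not overlap but spanned a narrower range. The type I level minus the GTPase level was 0.84, 0.96 and -0.35 in wild type and -0.83, -0.20 and -0.42 in KO. The median log2 SD of the type I genes was 0.84 among wild-type and 0.26 among KO libraries. For the GTPases it was 0.18 and 0.23, and for all tested genes 0.17 and 0.25. The wide spread of the type I genes was therefore found in wild type.

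Single libraries decided the calls. Without wild-type replicate 3, 17 members passed in edgeR, all lower in KO (2.01% of all tested genes were called, 1.38% lower and 0.624% higher), among them 8 type I genes and 0 GTPases. Without KO replicate 2, 10 were called lower and 1 higher, beside 10.9% and 14.5% of all tested genes (25.3% in either direction). Leaving out any one of wild-type replicates 1 and 2 or KO replicates 1 and 3 gave 0 called members. The shares of all tested genes called in these fits are not given here, and the fewest genes called in any of them was 1. These zeros therefore cannot be read as particular to the members. Without wild-type replicate 1 or 2, 0 of 6 skeletal muscle markers were called as well. With every library in, all 6 had been called. In the fits without wild-type replicate 1 or 2, the zeros were thus not particular to the members. With both wild-type replicate 3 and KO replicate 2 left out, a choice made after the data were seen, 29 members were called lower and 1 higher, beside 14.9% and 16.7% of all tested genes (31.6% in either direction). The median type I log2 fold change ranged from -1.71 without wild-type replicate 3 to -1.13 without wild-type replicate 2, and the GTPase median from -0.43 to -0.23.

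**Figure D4:**
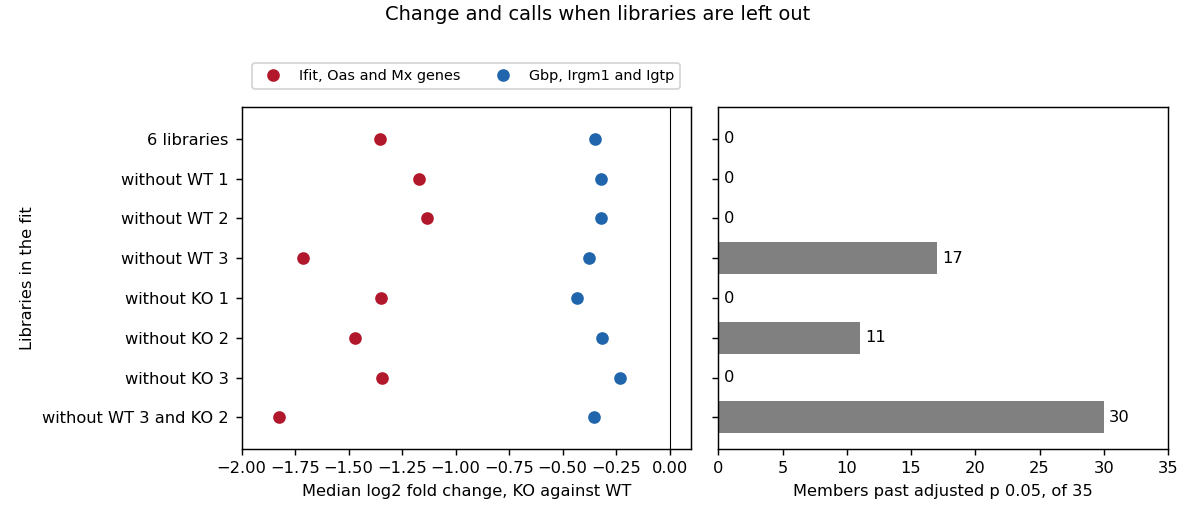
The left panel gives the median log2 fold change of the type I genes (red) and GTPases (blue) for each set of libraries in the fit, and the right panel the number of the 35 members past an adjusted p of 0.05 in edgeR. The medians keep their sign and their order throughout, while the number of calls runs from 0 to 30.

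Interferon transcripts themselves were scarce. Of 13 interferon genes looked for, 4 were matched and none passed the filter on low counts. The gamma interferon gene Ifng was seen with 8, 5 and 9 counts in the wild-type libraries, and KO libraries had 10, 8 and 1. Ifna2 had 4 counts in wild-type replicate 2, Ifnz 3 in wild-type replicate 1 and Ifnk 1 in wild-type replicate 3, with 0 in every other library. At this depth no difference in interferon RNA was detectable.

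Receptors and signalling genes had a median log2 fold change of -0.41 over 19 tested. Of these, 0 passed in edgeR and 17 were negative (55.8% of all tested genes). At an unadjusted p under 0.05 there were 5, all lower in KO, beside 9.79% of all tested genes. DESeq2 called 1 lower, near the 3.60% of all tested genes. Ifnar1, a chain of the type I receptor, had 111, 111 and 84.2 CPM in wild type and 74.4, 87.7 and 68.0 in KO, for a log2 fold change of -0.41 (edgeR adjusted p = 0.179). Ifngr2, a chain of the gamma receptor, had a log2 fold change of -0.50 and Irf5, a factor of myeloid cells, one of -0.82. Socs3, a feedback inhibitor of cytokine signalling, had 32.7, 43.9 and 16.7 CPM in wild type and 12.5, 18.8 and 11.3 in KO, for a log2 fold change of -1.13 (edgeR adjusted p = 0.123).

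Genes that sense nucleic acid upstream of interferon followed. Of 17 tested, 0 passed in edgeR, and 11 were lower and 1 higher in KO at an unadjusted p under 0.05, beside 9.79% and 12.8% of all tested genes. DESeq2 called 5 lower (3.60% of all tested genes), and the median log2 fold change was -0.65. Cgas, the cytosolic DNA sensor, had 8.30, 8.63 and 6.69 CPM in wild type and 3.73, 5.12 and 3.22 in KO. Its groups did not overlap (log2 fold change -0.96, SE 0.237, edgeR adjusted p = 0.0759). Myd88, Irak4 and Traf3, adaptors and a kinase of Toll-like receptor signalling, had log2 fold changes of -0.73, -0.57 and -0.78.

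Further interferon-induced genes outside the 35 had log2 fold changes from -3.29 to 0.22. Of 57 tested, 0 passed in edgeR, 39 had an unadjusted p under 0.05, all lower (9.79% of all tested genes), and 56 were negative with a median of -0.66. DESeq2 called 22 lower (3.60% of all tested genes). Cxcl10, a chemokine for activated T cells, had 66.2, 52.0 and 10.3 CPM in wild type and 5.28, 3.89 and 3.95 in KO. This was the most negative fold change of that list (log2 fold change -3.29, SE 0.627, edgeR adjusted p = 0.0578), and the groups did not overlap. Oas1g had 17.2, 24.1 and 5.88 CPM in wild type and 2.75 to 3.28 in KO, with the sequence caveat given for Oas1a. Ifi211 and Ifi204, of the DNA-binding p200 family, had log2 fold changes of -1.44 and -1.41.

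Other gamma-induced genes, which include antigen presentation, had a median log2 fold change of -0.44 over 34 tested. None passed in edgeR. At an unadjusted p under 0.05, 7 were lower and 1 higher, beside 9.79% and 12.8% of all tested genes. DESeq2 called 3 lower and 1 higher, beside 3.60% and 7.34%. The log2 fold change was negative for 28 of the 34 (55.8% of all tested genes). Cd274, which encodes the checkpoint ligand PD-L1, had 51.2, 50.6 and 34.4 CPM in wild type and 25.1, 28.2 and 22.0 in KO, without overlap (log2 fold change -0.85, SE 0.181, edgeR adjusted p = 0.0625). Gbp5 and Ifi47 had log2 fold changes of -0.59 and -0.93. Gbp10 was opposite, with 7.40, 6.25 and 9.03 CPM in wild type and 15.4, 13.7 and 9.56 in KO, for a log2 fold change of 0.77 (edgeR adjusted p = 0.108).

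The mean levels of marker lists of recruited myeloid cells moved with the type I genes across libraries. The level of 4 monocyte markers in wild-type libraries 1, 2 and 3 was 1.31, 1.58 and -0.22, against -1.12, -0.26 and -1.28 in KO. Their summed CPM was 197 to 482 in wild type and 102 to 198 in KO. The monocyte marker Ly6c2 followed less closely, with 85.7, 98.7 and 47.7 CPM in wild type and 37.9, 88.6 and 36.1 in KO. Its groups overlapped (log2 fold change -0.51, edgeR adjusted p = 0.458). For 4 neutrophil markers the level was 1.82, 2.45 and -0.24 in wild type and -1.51, -0.52 and -2.01 in KO, and the summed CPM 23.6 to 197 and 8.17 to 22.3. Of these markers, the monocyte receptor Ccr2 and the neutrophil gene Retnlg fell in KO (edgeR adjusted p = 0.0326 and 0.0469). That was 1 of 4 in each list, beside 0.162% of all tested genes called lower. No marker of either list was at 0 in any library. Neither list had a call without wild-type replicate 1 or 2, fits in which 0 of 6 skeletal muscle markers were called too. Limma-voom called 0 in either list (0.00600% of all tested genes lower). DESeq2 called 3 of the monocyte and 4 of the neutrophil markers lower (3.60% of all tested genes). For 8 macrophage markers, the level was 0.27, 0.63 and 0.11 in wild type and -0.36, -0.52 and -0.12 in KO. Of these 8, 0 passed in edgeR and 7 were lower at an unadjusted p under 0.05 (9.79% of all tested genes). DESeq2 called 4 lower (3.60% of all tested genes) and limma-voom 0. The part of monocytes, neutrophils and macrophages in the type I values was not tested.

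Lymphocyte markers followed another order. The level of 5 B cell markers was 0.58, 0.52 and 0.40 in wild type and -0.57, 0.60 and -1.54 in KO, with a summed CPM of 834 to 944 and 220 to 971. KO replicate 2 was thus at the wild-type B cell level. Its type I level, -0.31, was the highest of the KO libraries, and its GTPase level, -0.11, lay between those of the others. The part of lymphocytes in the members' values was not tested. The level of 8 T and NK cell markers was 0.04, 0.25 and 0.26 in wild type and -0.30, 0.59 and -0.83 in KO. Plasmacytoid dendritic cells are strong producers of type I interferon. For 5 of their markers the level was -0.33, -0.40 and -0.01 in wild type and 0.27, 0.46 and 0.01 in KO. Of these, 0 passed in edgeR, and DESeq2 called 1 higher, beside 7.34% of all tested genes. That gene, Cox6a2, had 1.06, 0.653 and 1.24 CPM in wild type and 8.26, 2.17 and 11.2 in KO (log2 fold change 2.86). The defining markers Siglech, Bst2 and Ccr9 had log2 fold changes of 0.15, -0.36 and -0.29. The part of muscle tissue in the Cox6a2 values was not tested. The markers of that list did not move together. Siglech had 18.7, 13.6 and 31.9 CPM in wild type and 24.7, 32.6 and 13.7 in KO. KO replicate 3 was thus about as low as wild-type replicate 2. Bst2, itself one of the 35 members, was highest in wild-type replicates 1 and 2, at 121 and 145 CPM.

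**Figure D5:**
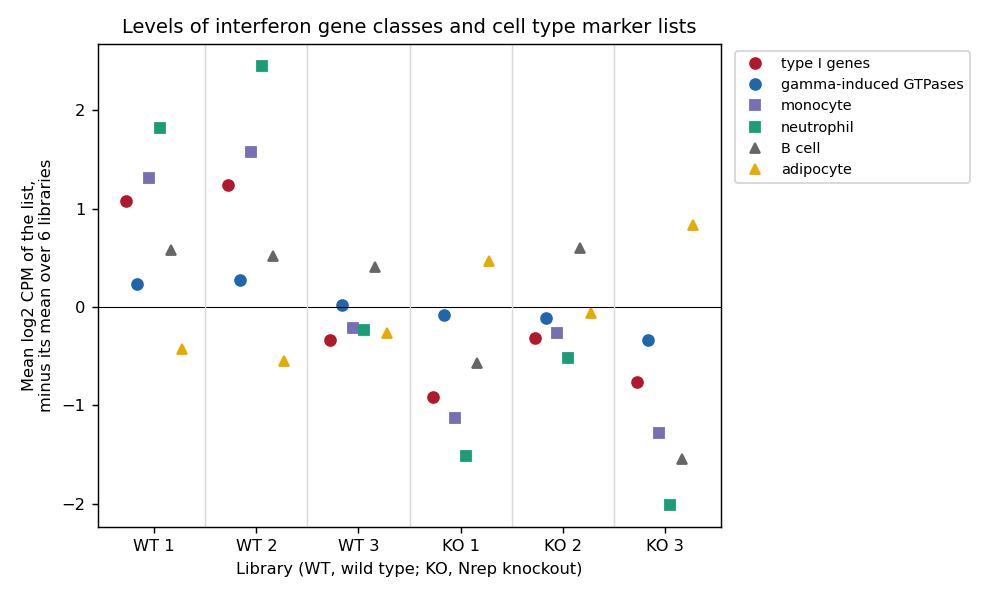
Points give, for each of the 6 libraries, the mean log2 CPM of a gene list minus its mean over the libraries, for the type I genes, the GTPases and 4 marker lists. The type I, monocyte and neutrophil points are above 1 in wild-type replicates 1 and 2 and below 0 in the other 4 libraries, while the GTPase points stay between -0.34 and 0.28.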

How the data were processed

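The iWAT table holds estimated counts per gene that the authors deposited, 1 column per library, not scaled or pooled; 9.53% to 11.1% of its values per library were not whole, and they were rounded. Libraries came from a stranded poly(A) kit, per the labels' protocols. The submitters' processing notes name fastp, featureCounts, GRCm38 and GRCm39 for the series; which of them apply to this table is not stated, nor how reads shared by near-identical genes were counted. Symbols came from GENCODE M21 (26372 of 33200 identifiers).

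The main test was edgeR 4.0.16 (R 4.3.3): quasi-likelihood, TMM, filterByExpr, robust, two-sided, with Benjamini-Hochberg adjustment over 16656 genes, 3 libraries against 3. Standard errors are the log2 fold change divided by the square root of F. CPM are TMM-normalised, 3 counts being 0.140 to 0.172 CPM. Class and marker levels are means of log2 CPM with a prior count of 2. Alternatives were DESeq2 1.42.0, limma-voom (limma 3.58.1), other scalings, filters and thresholds, a replicate block and leaving out libraries. The tests were checked on simulated data. Transcripts were compared with blastn.

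The members and lists were chosen with earlier results of these data known. Every member could be named. From each pathway list, members past the test or otherwise the 4 with the smallest p were named. From marker lists only the defining 3 could be named, and not all of them were. Cox6a2 was named in addition. Replicates are described as biological, and p-values measure the spread between these animals' libraries. Counting error only is covered by the floor.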

Additional observations from a re-analysis of the deposited data

How the results depend on the processing

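Direction was kept for all 35 members in each of 15 alternative fits, which reuse the same libraries and are no independent support; 92 of 525 member values passed an adjusted p of 0.05 there. The count of called members was 0 in edgeR, 19 in DESeq2, 7 with no filter on low counts, 11 at an adjusted p of 0.1 and 0 at 0.01. The share of all tested genes was not computed at an adjusted p of 0.1 or 0.01. The member counts at those thresholds therefore cannot be set against it. It was 0 to 17 when single libraries were left out and 30 with both wild-type replicate 3 and KO replicate 2 left out. Over all genes edgeR called 171 (144 higher, 27 lower), DESeq2 1823, limma-voom 16 and no filter 1370. Leaving out single libraries gave 1 to 4221, and both of those libraries 5271. Scaling by library totals called 129 genes higher and 49 lower, and moved the all-gene median by -0.134 on the log2 scale, with medians of -1.49 for the type I genes and -0.48 for the GTPases. With Iigp1 added, the GTPase median was -0.35.

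Whether the replicate numbers pair the libraries was not settled. The deviations of same-numbered libraries correlated at -0.008, 0.196 and 0.105 over genes, and not every library correlated best with its own number. Deviations from a genotype mean cancel out within that genotype, so these correlations are tied to one another and cannot decide it. With the replicate block, 8 members were called (7 lower, 1 higher) and 1225 genes in all. The cause of these shifts was not tested, and fits without a library also hold fewer samples.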
